A study of Mus musculus with 41 samples.

Results

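Smoc1 and Smoc2 are 2 of the 23366 gene symbols counted in 41 RNA-seq libraries of sorted mouse small intestinal cells. The pair was picked by name after Smoc2 was seen to be higher in Id2KO epithelium, so that difference is given below as a description with no test. The rows of both genes were read in every library as counts scaled by the total of all gene counts in the library (counts per M, CPM). At embryonic day 11.5 (E11.5) the groups were wild-type (wt) and Id2KO EpCAM+ epithelium, wt and Id2KO EpCAM- mesenchyme, and Lgr5+EpCAM+ epithelium from Id2KO embryos, with 3 libraries each. At E13.5 the groups were Lgr5-EGFP+EpCAM+ and EpCAM+ epithelium without a knockout label, with 4 libraries each. Adults at postnatal day 60 gave Lgr5+ intestinal stem cells (ISC) of unstated region, with 4 libraries, and Lgr5+ stem cells of the anterior, middle and posterior small intestine labelled wt or Id2KO, with 2 libraries per group. A Tomato+Lgr5+ group from the posterior part, labelled Id2KO, had 2 libraries. All mice were of mixed C57BL/6 CD1 background, and each library came from 250 sorted cells, taken from 1 embryo at E11.5 and from pools of 6 to 12 embryos at E13.5. The Id2 allele, any Cre driver, the origin of the Tomato signal and whether the groups not sorted for Lgr5 carried the EGFP reporter are not stated in the labels. A wt Lgr5+ group at E11.5 is not analysed here.

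SMOC proteins (secreted modular calcium-binding proteins) belong to the SPARC family of extracellular matrix proteins and are found in basement membranes. In frog embryos SMOC1 acts as an antagonist of bone morphogenetic protein (BMP) signalling, and the related fly protein Pentagone binds glypicans, which are heparan sulphate proteoglycans, and widens the spread of a BMP ligand. In the adult mouse intestine Smoc2 is known as one of the transcripts that mark Lgr5+ crypt base stem cells, while BMP signalling is high in the villus and held low at the crypt base by antagonists from the mesenchyme. Id2, the gene that the knockouts target, encodes a protein that binds helix-loop-helix transcription factors and keeps them off DNA.

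In the GENCODE M21 annotation Smoc1 lies on the plus strand of chromosome 12, its exons add up to 3.5 kb, and a miRNA gene, Mir3067, lies within it. Smoc2 lies on the plus strand of chromosome 17 with 6.95 kb of exon, and an antisense transcript, 4930474M22Rik, touches its exons. That annotation is of another assembly than the mm9 used for the counts, so no coordinates are given. The strand setting of the counting was not given in the sources used here, so reads of Smoc2 and its antisense partner cannot be told apart where they overlap. Counts assigned to 4930474M22Rik were 0 to 97 in any library, at most 12 in Id2KO EpCAM+ epithelium and 0 in wt EpCAM+ epithelium.

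Libraries held 13.6 to 51.2 M gene counts. Id2 averaged 167 CPM in Id2KO and 5961 CPM in wt EpCAM+ epithelium, and 142 against 2525 CPM in mesenchyme, as the E11.5 labels say. In the adult segments Id2 did not separate the labels in this way. It was at 98.9 to 199 CPM in the 8 libraries labelled Id2KO and at 64.1 to 125 CPM in the 6 labelled wt. Means under Id2KO and wt labels were 197 and 83.8 CPM (anterior), 148 and 80.1 CPM (posterior), and 106 and 113 CPM (middle). By edgeR's quasi-likelihood test Id2 was called higher under the Id2KO label in anterior (adjusted p = 0.0053) and posterior segments (adjusted p = 0.02). It was not called in middle ones (adjusted p = 0.78). The shares of all genes called were 1.5%, 5.16% and 3.91% in that order. Id2 counts thus do not bear out the adult labels, though E11.5 Id2KO libraries themselves held 108 to 182 CPM. The adult segment groups are therefore called by their labels throughout. All 9 epithelium markers were detected in every embryonic EpCAM+ and Lgr5+ library and in adult ISC, and 7 to 9 in adult segment libraries. Their sum was 62.4 to 120.1 CPM in mesenchyme against 4908 to 6841 CPM in E11.5 epithelium. The leucocyte marker C1qa exceeded 100 CPM in 3 E11.5 EpCAM+ libraries, Id2KO replicates 1 and 2 and wt replicate 1. The wt E11.5 libraries, labelled as single embryos, held both Xist and the Y-linked Ddx3y, whereas each E11.5 Id2KO library held 1 of them at a high level and nearly none of the other, and the part of this in the differences below was not tested. The design text calls the replicates biological, but the labels do not say which adult segments share an animal, so p-values there measure only the spread between these libraries.

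Levels of the pair fell into different orders over the 15 groups. Smoc2 spanned 0.721 CPM, in a wt E11.5 EpCAM+ library, to 1834 CPM, in an adult middle library labelled Id2KO. Group means of Smoc2 descended from the 7 adult segment groups (1324 to 1704 CPM) to Id2KO Lgr5+ epithelium at E11.5 (1075 CPM), adult ISC (318 CPM), Id2KO EpCAM+ epithelium (253 CPM), Id2KO mesenchyme (172 CPM), wt mesenchyme (76.8 CPM), E13.5 Lgr5+ (28.4 CPM), E13.5 EpCAM+ (2.05 CPM) and wt E11.5 EpCAM+ epithelium (1.16 CPM). Of the 14 neighbouring pairs of groups in that order, 8 overlapped. These were the neighbours among the segment groups, then adult ISC with Id2KO EpCAM+ epithelium, and Id2KO EpCAM+ epithelium with Id2KO mesenchyme. Smoc1 was highest at E11.5, in Id2KO Lgr5+ epithelium (48.6 CPM), Id2KO mesenchyme (41.4 CPM) and wt mesenchyme (27.0 CPM), whose libraries overlapped from one to the next. Every other group mean of Smoc1 was at most 8.93 CPM, and 12 of its 14 neighbouring pairs overlapped.

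**Figure D1:**
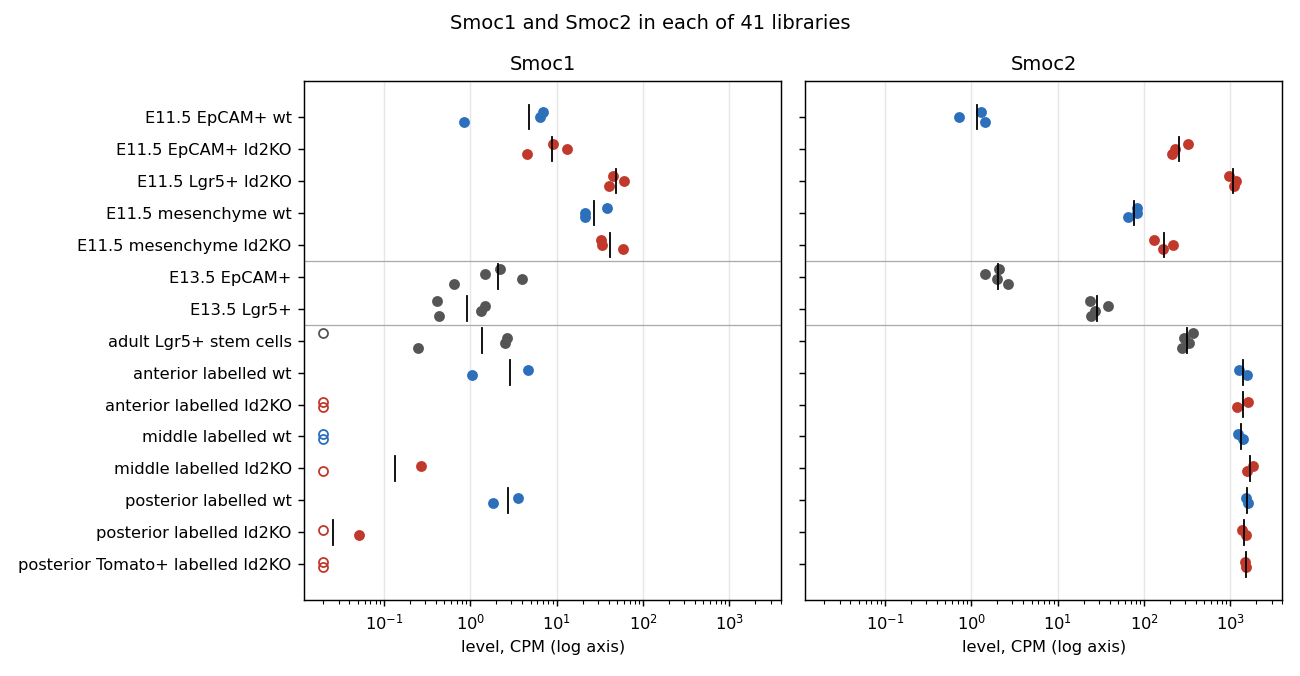
Smoc1 (left) and Smoc2 (right) in each library, in CPM on a log axis, 1 row per group; points are libraries, vertical ticks are group means and open points at the left edge are libraries at 0. Smoc2 fills the range from 0.721 to 1834 CPM and is high in all 14 adult segment libraries, whereas Smoc1 peaks in the E11.5 Lgr5+ and mesenchyme libraries.

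Per kilobase of exon, which allows the levels of both genes to be compared, Smoc2 was 8.61 to 23.6 times Smoc1 in Id2KO EpCAM+ libraries and 9.79 to 13.6 times in Id2KO Lgr5+ libraries. In wt EpCAM+ libraries the ratio per kilobase was 0.0564 to 0.867, so by this scaling Smoc1 was above Smoc2 in all 3. In wt replicate 3 that order rests on the exon lengths, as plain CPM were 0.848 for Smoc1 and 1.46 for Smoc2. These lengths are of all annotated exons in GENCODE M21, which need not be those of the transcripts present. Mesenchyme was nearer to balance, with ratios of 1.08 to 1.98 in wt and 1.44 to 3.32 in Id2KO. At E13.5 the ratio was 0.251 to 2.06 in EpCAM+ and 10.3 to 29.3 in Lgr5+ cells. Adult ISC had 55.2 to 563 times more Smoc2 than Smoc1 in the 3 libraries where Smoc1 was above 0.

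The comparison that led to the choice of the pair asked how E11.5 epithelium differs without Id2. Smoc2 was at 322, 227 and 211 CPM in Id2KO replicates 1 to 3 and at 1.30, 0.721 and 1.46 CPM in the wt replicates. The lowest Id2KO library was far above the highest wt library, and the ratio of the means was 218. On the log2 scale the fitted difference was 7.80 ± 0.30 (standard error, SE), with 7.25% of 15153 genes higher without overlap of the groups and 1.66% called in either direction at an adjusted p under 0.05 (edgeR's quasi-likelihood test, Benjamini-Hochberg adjustment). As the choice rests on this contrast, nothing is read from those shares. Smoc1 was at 9.03, 13.2 and 4.51 CPM in Id2KO and at 7.03, 6.42 and 0.848 CPM in wt EpCAM+ libraries. These groups overlapped, and the fitted log2 difference of Smoc1 was 0.96 ± 0.58, also without a test.

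Both transcripts were also present in mesenchyme, so its markers were read in the sorted epithelium, where they were low. The 13 mesenchyme markers summed to 11.2 to 20.1 CPM in Id2KO EpCAM+ libraries, with Prrx1 at 0, to 26.0 to 48.8 CPM in wt EpCAM+ libraries, and to 2584 to 3169.7 CPM in Id2KO mesenchyme. As a share of the mean in mesenchyme of the same genotype, the markers stood at 0.384 to 0.69% in Id2KO EpCAM+ libraries, while Smoc2 stood at 123 to 188% of its mesenchymal level there. In wt EpCAM+ libraries the same shares were 1.25 to 2.34% for the markers and 0.938 to 1.9% for Smoc2, and for Smoc1 they were 26.1, 23.8 and 3.15%. Mesothelium markers summed to 11.9 to 12.7 CPM in Id2KO EpCAM+ libraries, against 4.15 to 9.47 CPM in the wt ones, and their part in the difference was not tested. Leucocyte markers varied within both genotypes, at 2.96 to 835 CPM in the Id2KO libraries and 87.0 to 808 CPM in the wt libraries. Without the 3 libraries over 100 CPM of C1qa the log2 difference of Smoc2 was 7.63 and that of Smoc1 was 0.38. In sorted bulk cells a transcript in fewer cells and less of it per cell cannot be told apart.

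**Figure D2:**
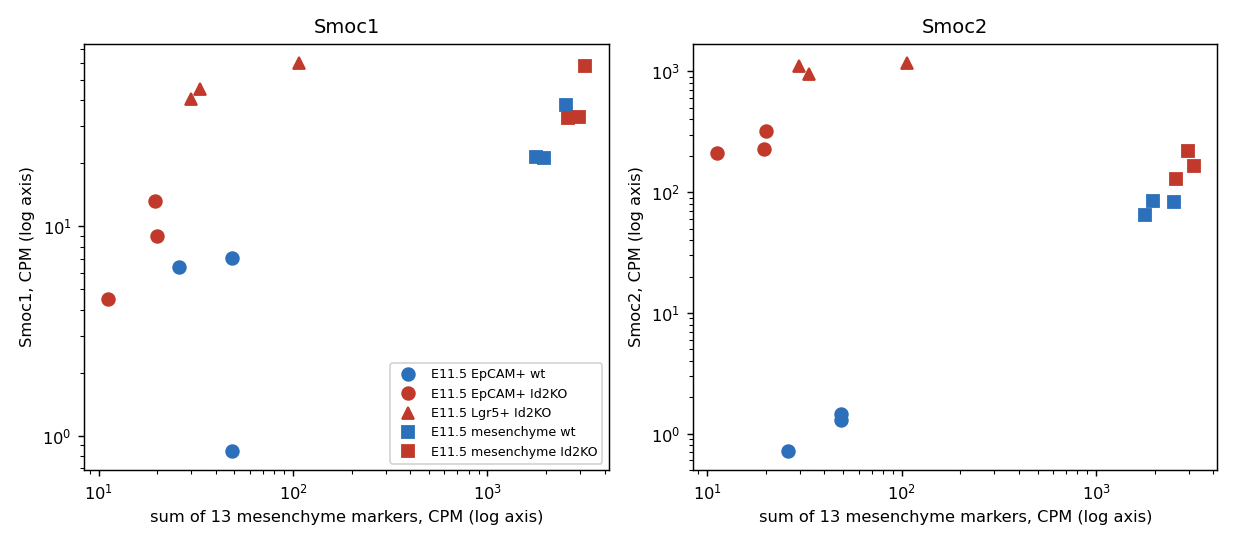
Smoc1 (left) and Smoc2 (right) against the summed level of 13 mesenchyme markers in the 15 E11.5 libraries, in CPM with log axes; each point is a library, with circles for EpCAM+, triangles for Lgr5+ and squares for mesenchyme, blue for wt and red for Id2KO. Id2KO EpCAM+ libraries have 211 to 322 CPM of Smoc2 with the lowest marker sums of the plot, 11.2 to 20.1 CPM.

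Lgr5+ epithelium sorted from Id2KO embryos held more of both transcripts than the EpCAM+ epithelium of the same genotype. Smoc2 was at 957, 1167 and 1100.2 CPM in the Lgr5+ replicates, against 211 to 322 CPM in EpCAM+ libraries. The mean was 4.24 times higher with a fitted log2 difference of 2.05 ± 0.23, given without a test because the EpCAM+ libraries entered the choice of the gene. Smoc1 was at 45.1, 60.0 and 40.7 CPM in Lgr5+ libraries, against 4.51 to 13.2 CPM in EpCAM+ libraries, again with no overlap, which 11.1% of tested genes showed in that direction. Its log2 difference of 2.42 ± 0.60 did not pass (edgeR adjusted p = 0.056, 3.14% of 15153 genes called). Xist was high in replicate 1 of both groups and Ddx3y in replicates 2 and 3 of both. With the replicate number as a block, the Smoc1 difference was 2.59 (edgeR adjusted p = 0.012). It was also called with the compared groups alone (adjusted p = 0.016) and by DESeq2 (adjusted p = 0.00033). Without the 3 libraries over 100 CPM of C1qa it was 3.36 (adjusted p = 0.096), with 1 Id2KO EpCAM+ library left that is assumed to vary like the other groups.

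Other marker sums moved between these groups. The mesenchyme markers summed to 29.8 to 107 CPM in Lgr5+ libraries, with Prrx1 at 0, which is 1.02 to 3.68% of the mean in Id2KO mesenchyme. Smoc1 in the Lgr5+ libraries stood at 98.3 to 145% of its mesenchymal level, and Smoc2 at 558 to 680%. Enterocyte markers were lower in Lgr5+ libraries, at 130.4 to 152 CPM against 541 to 1337 CPM in EpCAM+ libraries, and leucocyte markers were at 1.96 to 4.63 CPM, with Ptprc at 0. Their part in the differences was not tested.

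Smoc1 was higher in mesenchyme than in EpCAM+ epithelium at E11.5 in both genotypes. In wt mesenchyme it was at 38.1, 21.3 and 21.4 CPM, and each of these libraries was above the highest wt EpCAM+ library at 7.03 CPM. The difference, EpCAM+ minus mesenchyme, was -2.96 ± 0.62 on the log2 scale (edgeR adjusted p = 0.0033), where 10.7% of 15680 genes were called lower and 11.5% were lower without overlap. The share without overlap rests on CPM, which erythroid markers at 222145 to 268958 CPM lower for other genes in wt mesenchyme. Id2KO mesenchyme held 33.0, 33.3 and 58.1 CPM of Smoc1, against 4.51 to 13.2 CPM in Id2KO EpCAM+ libraries. That difference was -2.26 ± 0.60 (edgeR adjusted p = 0.014), where 10.8% of genes were called lower and 16.6% were lower without overlap. It missed the threshold without EpCAM+ Id2KO replicate 3 (-1.94, adjusted p = 0.055) or without mesenchyme Id2KO replicate 3 (-1.92, adjusted p = 0.054).

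Smoc2 had a different layout. In wt embryos its mesenchymal level was 66.3 times that of EpCAM+ epithelium by plain CPM means. The fitted log2 difference after TMM scaling, EpCAM+ minus mesenchyme, was -6.47 ± 0.33, a larger gap. TMM scaling over all 41 libraries raised the wt mesenchyme mean from 76.8 to 95.8 CPM. In Id2KO embryos the EpCAM+ and mesenchyme libraries overlapped (211 to 322 against 129 to 219 CPM), with a log2 difference of 0.55 ± 0.25. Neither value has a test, since the EpCAM+ libraries entered the choice of the gene.

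Within mesenchyme, which the choice of the pair did not use, Smoc2 was at 129, 219 and 166 CPM in Id2KO and at 82.3, 83.9 and 64.4 CPM in wt. All 3 Id2KO libraries were above all 3 wt libraries, but so were they for 26% of the 13734 genes tested. The fitted log2 difference of 0.77 ± 0.21 did not pass (edgeR adjusted p = 0.22, 0.881% of genes called), whereas DESeq2 gave an adjusted p of 0.027. Smoc1 overlapped between the genotypes, with a log2 difference of 0.25 ± 0.33 (edgeR adjusted p = 0.97). Erythroid markers differed strongly between these groups, at 24742 to 59618 CPM in the knockout and 222145 to 268958 CPM in wt. The levels above and the share of 26% rest on CPM, which these markers lower for other genes more in wt than in the knockout. With the haemoglobin genes left out of the library sizes the log2 difference of Smoc2 was 0.78 (edgeR adjusted p = 0.21).

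**Figure D3:**
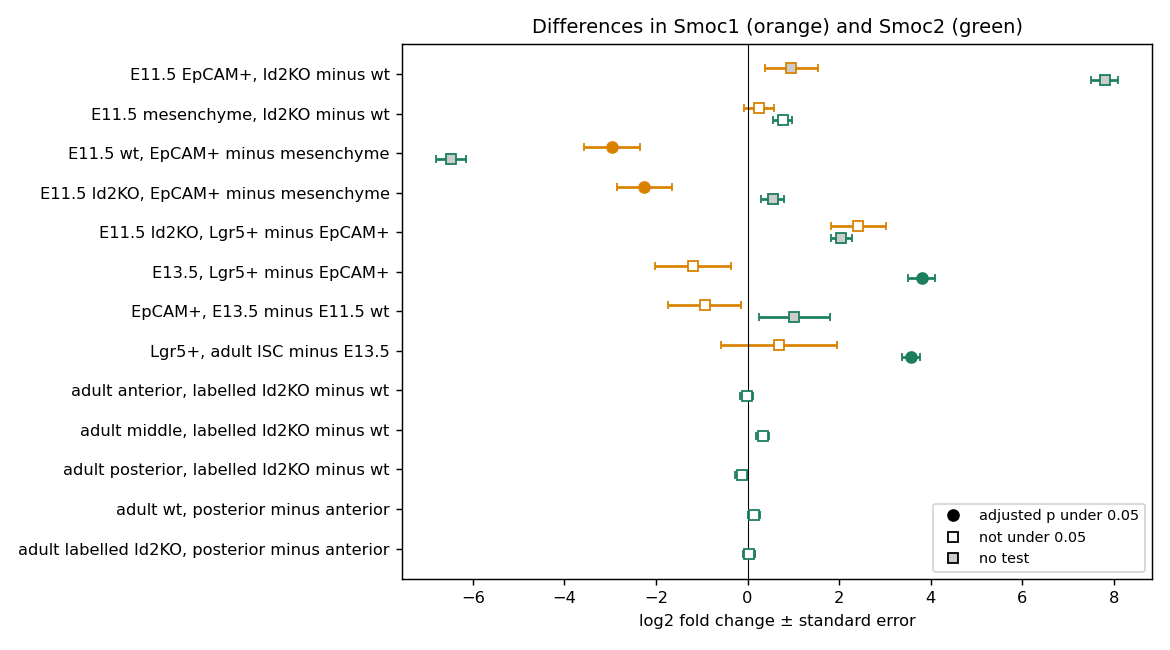
Fitted log2 fold change with its SE for Smoc1 (orange) and Smoc2 (green) in 13 comparisons; filled circles passed an adjusted p of 0.05, open squares did not and grey squares have no test. Smoc1 is left out of the adult segment comparisons, where many libraries were at 0. Smoc2 passed in 2 comparisons, Lgr5+ minus EpCAM+ at E13.5 (3.80) and adult ISC minus E13.5 Lgr5+ (3.57), and its differences between adult segment groups lie between -0.13 and 0.33.

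At E13.5 only Smoc2 of the pair was called different between Lgr5+ and EpCAM+ epithelium. It was at 23.9, 37.9, 27.1 and 24.6 CPM in the 4 Lgr5+ libraries and at 2.09, 1.46, 2.0 and 2.63 CPM in the 4 EpCAM+ libraries. The groups lay 13.9-fold apart in their means, with a log2 difference of 3.80 ± 0.29 (edgeR adjusted p = 3.9e-05, higher in 4 of 4 libraries). In this comparison 0.794% of 13355 genes were called higher and 3.28% were higher without overlap. Smoc1 was near the bottom of its range in both, at 0.41, 1.5, 1.32 and 0.435 CPM in Lgr5+ and 2.23, 1.49, 4.00 and 0.64 CPM in EpCAM+ libraries. These overlapped, and the log2 difference was -1.19 ± 0.83 (edgeR adjusted p = 0.76). Enterocyte markers were again lower in the Lgr5+ libraries (65.7 to 124 against 504 to 619 CPM), and the mesenchyme markers summed to 38.1 to 84.4 CPM in Lgr5+ and 25.9 to 47.8 CPM in EpCAM+ libraries. Mesothelium markers did not overlap, at 3.03 to 6.90 CPM in Lgr5+ and 11.9 to 25.5 CPM in EpCAM+ libraries. Their part was not tested.

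Lgr5+ cells of the Id2KO embryos at E11.5 and of E13.5 embryos can be set side by side, but genotype and stage both differ between them and cannot be told apart. Lgr5 itself, the gene behind the sort, was at 119, 73.8 and 118 CPM at E11.5 and at 83.6 to 94.7 CPM at E13.5. At these levels of Lgr5, Smoc2 was 957 to 1167 CPM at E11.5 and 23.9 to 37.9 CPM at E13.5, a ratio of means of 37.9. Smoc1 was 40.7 to 60.0 CPM at E11.5 and 0.41 to 1.5 CPM at E13.5, a ratio of means of 53.0. In Id2KO EpCAM+ epithelium Lgr5 was only 2.40 to 7.49 CPM, against 3.31 to 10.9 CPM in wt, where Smoc2 was 1.46 CPM or less.

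**Figure D4:**
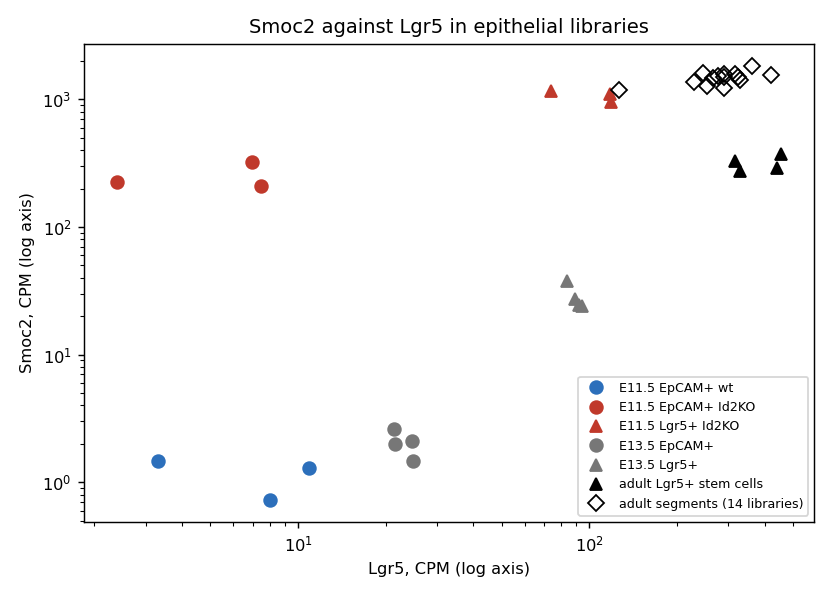
Smoc2 against Lgr5 in the epithelial libraries, both in CPM with log axes, 1 point per library. Id2KO EpCAM+ libraries have 211 to 322 CPM of Smoc2 at 2.40 to 7.49 CPM of Lgr5, and the E11.5 and E13.5 Lgr5+ libraries, near 100 CPM of Lgr5, differ in Smoc2 by a ratio of means of 37.9.

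From wt E11.5 to E13.5, EpCAM+ epithelium stayed low in Smoc2, at 0.721 to 1.46 CPM and then 1.46 to 2.63 CPM, with a fitted log2 difference of 1.02 ± 0.78 and no test. Smoc1 overlapped between the stages, with a log2 difference of -0.94 ± 0.79 (edgeR adjusted p = 0.37), in a comparison where 40.4% of 14467 genes were called.

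Adult ISC had more Smoc2 than E13.5 Lgr5+ cells. The 4 adult libraries held 372, 292, 331 and 275 CPM, all above the highest E13.5 library at 37.9 CPM. The log2 difference was 3.57 ± 0.19 (edgeR adjusted p = 3.9e-08, higher in 4 of 4 libraries), in a comparison where 18.6% of 13144 genes were called higher and 17.2% were higher without overlap. Smoc1 was at 0, 2.66, 2.54 and 0.246 CPM in adult ISC and overlapped with E13.5, with a log2 difference of 0.69 ± 1.27 (edgeR adjusted p = 0.71). Other features also differed between these libraries: Xist was at 0.551 to 12.4 CPM in adult ISC and at 129.5 to 276 CPM at E13.5, and Paneth cell markers summed to 287 to 468 CPM there against 0.109 to 1.48 CPM at E13.5. Their part was not tested.

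In the adult segments Smoc2 was high in every library and called different in no comparison. It was at 1265 and 1555 CPM in anterior libraries labelled wt and at 1191 and 1609.7 CPM in those labelled Id2KO. The groups overlapped, with a log2 difference of -0.02 ± 0.14 (edgeR adjusted p = 0.98, 1.5% of 13436 genes called). Middle libraries held 1235 and 1414 CPM when labelled wt and 1574 and 1834 CPM when labelled Id2KO. Those groups did not overlap, as for 27.9% of genes in that direction, and the difference of 0.33 ± 0.14 did not pass (edgeR adjusted p = 0.24, 3.91% called). Paneth cell markers summed to 599 and 914 CPM in the middle libraries labelled wt and to 16.1 and 23.3 CPM in those labelled Id2KO, and their part was not tested. In posterior libraries Smoc2 was at 1505 and 1593 CPM when labelled wt and at 1499.8 and 1369 CPM when labelled Id2KO. There it was -0.13 ± 0.14 (edgeR adjusted p = 0.68, 5.16% called), with the groups just apart, as for 21.5% of genes in that direction. Tomato+ libraries held 1462 and 1533 CPM, and against the posterior libraries labelled Id2KO the difference was 0.07 ± 0.14 (edgeR adjusted p = 1), where 0% of genes were called, 358 genes had an unadjusted p under 0.05 and DESeq2 called 1.

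Position along the intestine gave no called difference in Smoc2 either. Posterior minus anterior was 0.14 ± 0.14 among libraries labelled wt (edgeR adjusted p = 0.59, 4.81% of genes called) and 0.03 ± 0.14 among those labelled Id2KO (edgeR adjusted p = 1, 2% called). The test of the difference between the 2 label effects, posterior minus anterior, gave -0.11 ± 0.20 (edgeR adjusted p = 0.85, 0.32% called). The segment libraries held 4.44 times (anterior, labelled wt) and 4.88 times (posterior, labelled wt) the Smoc2 of adult ISC by their means. That gap was not tested, and it went with other differences between these sets of libraries: Ddx3y was at 0 in all segment libraries, and 7.12 to 9.35% of reads had no gene there against 23.2 to 31% in adult ISC.

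Smoc1 was near the detection limit in the adult segments. It was at 0 in 6 of the 8 libraries labelled Id2KO, where the largest count was 5, and in 2 of the 6 labelled wt, where the largest count was 77. A count of 0 allows up to 3 counts, or 0.147 to 0.19 CPM in the libraries labelled Id2KO, which covers counting error only. Anterior libraries labelled wt held 4.72 and 1.05 CPM and both labelled Id2KO held 0, so that the wt mean was at least 17.8-fold higher, taking a floor of 3 counts per library. That limit rests on 2 unlike libraries, and is 6.45-fold without wt replicate 1 and 29.1-fold without wt replicate 2. In 21.9% of genes the libraries labelled Id2KO were lower without overlap. This did not pass (edgeR adjusted p = 0.15), while without the filter on low counts it did (adjusted p = 0.0091), as it did in DESeq2 (adjusted p = 0.025). Posterior libraries held 3.60 and 1.82 CPM when labelled wt and 0.0509 and 0 CPM when labelled Id2KO. There the adjusted p was 0.13 in edgeR, 0.024 without the filter and 0.042 with the compared groups alone. In the middle segment both libraries labelled wt were at 0 and those labelled Id2KO were at 0 and 0.266 CPM (edgeR adjusted p = 0.42), so the order there was not that of the other segments. Posterior minus anterior did not pass for Smoc1 under either label (edgeR adjusted p = 0.99 for wt and 0.91 for Id2KO), nor did the difference between the label effects (0.72) or that of Tomato+ (1).

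The pathway around the pair was followed with 8 lists: the other SPARC family genes, BMP ligands, BMP receptors, Smads, secreted BMP antagonists, BMP target genes, heparan sulphate proteoglycans and crypt base stem cell genes. In Id2KO against wt EpCAM+ epithelium, 2 of 9 measured BMP targets were called higher and 0 lower (list median 0.00 on the log2 scale against 0.01 for all genes), where 1.66% of all 15153 genes were called. They were Id3, at 1318 ± 219 CPM (SD, n = 3) against 284 ± 49.3 CPM, and Id1, at 334 ± 85.4 CPM against 125 ± 22 CPM, both encoding relatives of Id2 that BMP signals induce. Of 6 tested ligands 1 rose, Bmp7, from 14.9 to 51.8 CPM (1.84 ± 0.17, edgeR adjusted p = 0.00025). Of 10 tested antagonists 1 rose, Nbl1, from 5.05 to 38.4 CPM (2.97 ± 0.24, edgeR adjusted p = 7.3e-05). No member of 5 SPARC family genes, 7 receptors or 3 Smads was called, and of 12 proteoglycans 1 was lower, Col18a1, the collagen XVIII chain of basement membranes (-1.55 ± 0.26, edgeR adjusted p = 0.012). Of 17 stem cell genes 1 was higher, Sox9 (1.08 ± 0.24, edgeR adjusted p = 0.048), and 1 lower, Tnfrsf19 (-2.15 ± 0.41, edgeR adjusted p = 0.026), with a list median of 0.04.

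In Id2KO Lgr5+ against Id2KO EpCAM+ epithelium, 5 of 17 stem cell genes were called higher and 0 lower, with a list median of 0.64 on the log2 scale against -0.01 for all genes, of which 3.14% were called. Next to Lgr5, the gene of the sort, these included Tnfrsf19, a receptor marking stem cells (2.37 ± 0.42, edgeR adjusted p = 0.01), and Lrig1, an inhibitor of EGF receptors (2.18 ± 0.40, edgeR adjusted p = 0.013). Of 6 tested ligands 1 was called, Bmp3, an atypical ligand that opposes other BMPs. It was at 18.0 to 20.8 CPM in Lgr5+ libraries and at 0 to 0.781 CPM in EpCAM+ libraries (5.83 ± 1.23, edgeR adjusted p = 0.026). Of 9 tested BMP targets 1 was called higher, the homeobox gene Msx2 (2.25 ± 0.39, edgeR adjusted p = 0.0089), and 0 lower. The list median was -0.46 against -0.01 for all genes. Id1 was at 152 to 209 CPM in Lgr5+ and 273 to 432 CPM in EpCAM+ libraries. Id3 was at 907 to 926 CPM and 1161 to 1568 CPM in the same order, and neither was called. Of 10 tested antagonists 1 was called, Nbl1, which fell (-1.5 ± 0.22, edgeR adjusted p = 0.0043). Of the SPARC family, Sparc itself rose (1.8 ± 0.36, edgeR adjusted p = 0.021) and Spock3, a testican, fell (-0.76 ± 0.18, edgeR adjusted p = 0.04). Among 12 proteoglycans 2 rose, Col18a1 (2.14) and the glypican Gpc3 (1.01), with Gpc3 at 1838 ± 359 CPM (SD, n = 3) in Lgr5+ libraries.

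Between E11.5 EpCAM+ epithelium and mesenchyme, Smoc1 had the direction of most called antagonists. In wt embryos 6 of 13 antagonists were called lower in EpCAM+ epithelium and 0 higher (list median -2.11 against 0.01), where 10.7% of all genes were called lower and 11.5% higher, among them Fst, which encodes follistatin (0.82 against 34.8 CPM), and Nog, which encodes noggin (5.58 against 17.9 CPM). Of 6 SPARC family genes 4 were lower and 2 higher, with Sparcl1 at 0.331 against 50.9 CPM. Of 8 ligands 3 were lower, among them Bmp4 at 2.22 against 90.0 CPM, and 1 was higher. In Id2KO embryos the counts were 6 lower and 1 higher of 13 antagonists, 4 lower and 2 higher of 6 SPARC family genes, and 3 lower and 2 higher of 8 ligands, where 10.8% of all genes were called lower and 13.2% higher. In mesenchyme of both genotypes compared with each other, 0 of the 70 tested members of the 8 lists were called, near the 0.881% of all genes called there.

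At E13.5, 0 of the 45 tested members of the SPARC, BMP, Smad and proteoglycan lists were called between Lgr5+ and EpCAM+ epithelium, near the 1.75% of all genes called. Of the stem cell genes 4 of 16 were higher (list median 0.42 against -0.00 for all genes), against 0.794% of all genes. Beside Lgr5 these included Ascl2, a transcription factor of crypt stem cells (1.82 ± 0.26, edgeR adjusted p = 0.0021), and Tnfrsf19 (1.69 ± 0.33, edgeR adjusted p = 0.018). From E11.5 wt to E13.5 EpCAM+ epithelium, 8 of 9 BMP targets fell (list median -2.84 against -0.04), where 40.4% of all genes were called in either direction. Among them Msx2 fell from 17.0 to 0.0235 CPM, the decoy receptor gene Bambi from 147 to 6.35 CPM and Id1 from 125 to 15.4 CPM. From E13.5 Lgr5+ cells to adult ISC, where Smoc2 rose, 14 of 16 stem cell genes rose and 0 fell (list median 2.49 against 0.02), where 18.6% of all genes were called higher and 17.3% lower, led by Olfm4 at 4.00 and then 5317 CPM. The 3 tested SPARC family genes all fell, Sparc from 56.9 to 0.186 CPM, Spock3 from 23.3 to 0.112 CPM and Fstl1 from 291 to 105 CPM. Of 12 proteoglycans 5 fell and 3 rose, and the glypican Gpc3 went from 331 to 2.95 CPM. Of 3 tested ligands 1 rose and 1 fell. Bmp3 rose from 0.552 to 48.2 CPM, and Bmp2 fell (-2.69 ± 0.87, edgeR adjusted p = 0.029). Of 6 tested BMP targets 2 rose and 0 fell, with a list median of 1.03 against 0.02 for all genes. Id1 went from 6.83 to 282 CPM (edgeR adjusted p = 2.2e-05). Id3 went from 34.2 to 402 CPM (edgeR adjusted p = 3.7e-05).

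Genes with a pattern like each of the pair were looked for over the 15 group means, as Pearson's r of log2(mean CPM + 0.5) among 11211 genes. For Smoc1 they were Kcnmb2, a potassium channel subunit (r = 0.932), the chemokine gene Cxcl12 (0.931), the small GTPase genes Rit1 (0.928) and Rab12 (0.924), and Tenm4, a teneurin (0.924). All 5 had their highest mean in Id2KO mesenchyme, where Cxcl12 reached 171 CPM. Smoc1 itself was highest in Id2KO Lgr5+ epithelium, at 48.6 CPM against 41.4 CPM in Id2KO mesenchyme. For Smoc2 they were Gfod2 (0.902), E2f8, an atypical E2F factor (0.893), the sialyltransferase gene St3gal6 (0.888), the unconventional myosin gene Myo1e (0.870) and Ankle1, an endonuclease gene (0.865). All 5 had their highest mean in an adult segment group. Smoc1 and Smoc2 correlated at -0.283 over the 15 groups and at 0.712 over the 7 embryonic groups. Groups share stage, sort and sequencing depth, so these values describe the set and carry no test.

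**Figure D5:**
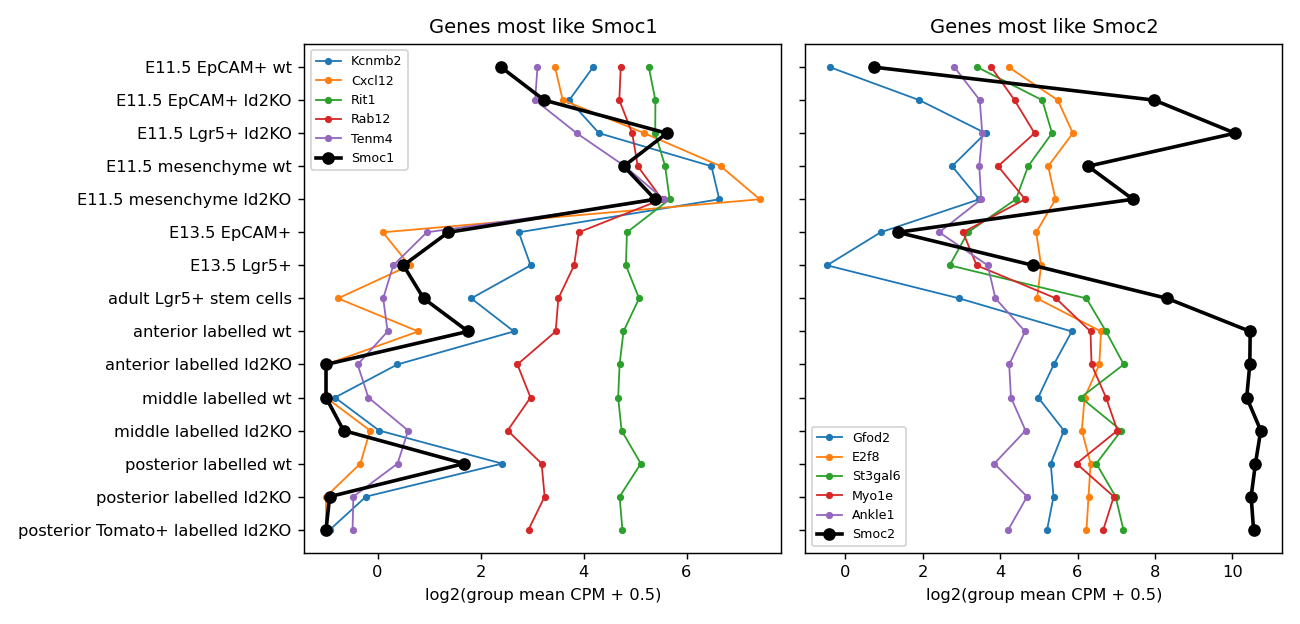
Group means as log2(CPM + 0.5) for Smoc1 (left, black) and Smoc2 (right, black) with the 5 genes most correlated with each over the 15 groups, 1 row per group. The genes like Smoc1 peak in Id2KO mesenchyme, whereas Smoc1 itself peaks in Id2KO Lgr5+ epithelium. Those like Smoc2 peak in adult segment groups over a narrower range than Smoc2, which spans 1.16 to 1704 CPM.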

How the data were processed

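The deposited files hold raw read counts per gene symbol, and per the submitters' processing notes bcl2fastq 1.8.4, STAR 2.3.1z13, SAMtools 1.2, HTSeq 0.6.1p1, DESeq2 1.6.3 and mm9 were used by the authors; the annotation, strand setting and filters are not given in the sources used here. Per the labels' protocols, cDNA was made with a SMARTer kit over 15 cycles and read as single ends of 50 bp. The 5 category rows were left out, and reads without a gene were 7.12 to 31% of all counted reads. CPM was computed from these counts, and intervals and floors cover counting error only.

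Genes were tested in R 4.3.3 by edgeR 4.0.16 (limma 3.58.1 loaded): filterByExpr, TMM scaling, robust quasi-likelihood fits and Benjamini-Hochberg adjustment over all tested genes, called under 0.05. Joint fits held the 3 epithelial groups of E11.5, the 4 E11.5 EpCAM+ and mesenchyme groups and the 7 segment groups; other comparisons were fitted on their own groups. Both genes passed the filter in all 15 comparisons. Smoc2 was not tested where E11.5 EpCAM+ libraries entered, nor either gene between the EpCAM+ genotypes, which left 24 tests of the pair. SE is the log2 fold change over the root of F.

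The members, lists and tests were chosen with earlier results of these data known. Named genes are the pair, Id2, Lgr5, up to 3 called members of each list by size of change if some group averaged 5 CPM or more, and 5 genes per member by correlation; genes named as cell type markers come from marker lists. The main fits had no replicate block. Only the refits with the block paired libraries by number. For Id2KO Lgr5+ and EpCAM+ libraries the correlations of same-numbered deviations from the group means were 0.154, 0.252 and 0.123. Between Id2KO and wt EpCAM+ libraries, which cannot share an embryo, they were 0.111, -0.0343 and 0.245, so this measure does not show pairing. Same-numbered Id2KO EpCAM+, Lgr5+ and mesenchyme libraries matched in which of Xist and Ddx3y was high. Alternatives were RLE size factors, DESeq2 1.42.0, no filter, a replicate block, fits on only the compared groups, and dropping single libraries. All 40 replicate pairs were checked and 0 were identical. As a check of the code, the fits were also run on simulated counts of groups that were equal apart from set changes. No result above rests on that check.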

Additional observations from a re-analysis of the deposited data

How the results depend on the processing

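Of 322 refits of the log2 differences of Smoc1 and Smoc2, 300 kept their direction and their side of the threshold, 8 newly passed it, 2 no longer did and 12 changed sign, and the causes were not tested. Newly passing were Smoc2 in mesenchyme by DESeq2 (0.77, adjusted p = 0.027). So was Smoc1 in Id2KO Lgr5+ minus EpCAM+ by DESeq2 (2.43), with the replicate block (2.59) and with the compared groups alone (2.42). Smoc1 in anterior segments passed by DESeq2 (-8.16) and without the filter (-8.60), and in posterior segments without the filter (-6.31) and with the compared groups alone (-6.28), fitted values against libraries at 0 that are no bounds. Sign changes were all in differences that never passed: Smoc1 in adult ISC minus E13.5 with the block (-0.44), Smoc1 in posterior minus anterior segments labelled wt with the block (0.03), and Smoc2 in anterior segments without the filter (0.01) and with the compared groups alone (0.01).

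With single libraries left out, Smoc1 in Id2KO EpCAM+ minus mesenchyme ranged from -2.59 to -1.92. Smoc1 ranged from -0.08 to 0.61 between the mesenchymes and from -0.76 to 1.39 in posterior minus anterior segments labelled wt. Smoc2 ranged from -0.24 to 0.20 in anterior segments, from -0.17 to 0.25 in posterior minus anterior labelled Id2KO, and from -0.34 to 0.11 in the difference of label effects. Smoc2 ranged from 3.65 to 3.94 in E13.5 Lgr5+ minus EpCAM+ and from 3.49 to 3.71 in adult ISC minus E13.5, passing each time.

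The replicate block changed no call of the pair other than Smoc1 in Id2KO Lgr5+ cells. For Tomato+ and posterior libraries labelled Id2KO the correlation by number was -0.118, from 2 libraries per group. Paneth marker sums in replicates 1 and 2 went with the numbers, at 1848 and 113 CPM against 1206 and 64.2 CPM. Adult stem cell marker sums went the other way, at 13511 and 15237 CPM against 12243 and 10806 CPM. Whether the Tomato+ numbers are crossed is therefore not settled. A block with them crossed, added after seeing the data, also called 0 genes. Leaving out the C1qa libraries or the haemoglobin genes was likewise added after seeing the data.

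Counts of called genes moved over 1.5 times with DESeq2 in mesenchyme (121 to 293), Id2KO Lgr5+ (476 to 1146), EpCAM+ genotypes (251 to 727, or 119 with the groups alone) and E13.5 (234 to 466). Among the segments, over all alternatives that kept every library, they were 44 to 766 for anterior (202), 340 to 1302 for middle (526), 522 to 1447 for posterior (693), 47 to 1654 (646) and 187 to 675 (269) for posterior minus anterior labelled wt and Id2KO, 25 to 868 (43) for the difference of label effects and 0 to 66 (0) for Tomato+. Without the C1qa libraries, Id2KO EpCAM+ minus mesenchyme had 2302 in place of 3759.

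TMM scaling over all 41 libraries moved the mean of Smoc2 beyond 1 SD in wt mesenchyme (76.8 to 95.8 CPM), adult ISC (318 to 380.0 CPM) and 4 segment groups. Low counts limit what can be said of Smoc1 in adults: segment libraries held 0 to 77 counts of it and adult ISC libraries 0 to 82.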

Other observations

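In the adult segments, stem cell genes other than the pair differed between the labels. In the middle segment 3 of 17 listed genes were higher in libraries labelled Id2KO and 0 lower, with 3.91% of all genes called: Lrig1 (159 against 76.0 CPM), Prom1, a membrane glycoprotein (509 against 257 CPM), and Sox9, a crypt transcription factor (529.6 against 280.0 CPM). All 3 Paneth cell markers were detected in these libraries, and their sum moved with the label there, at 599 to 914 CPM under wt and 16.1 to 23.3 CPM under Id2KO. Their part was not tested. In the posterior segment Axin2, a Wnt feedback gene (94.8 against 51.3 CPM), and Prom1 (395 against 262 CPM) were the 2 called higher of 17, where 5.16% of all genes were called, and in the anterior segment 0 of 17 were called, against 1.5% of all genes. Of the BMP targets Id3 was higher in anterior libraries labelled Id2KO (312 against 132 CPM, 1.23 ± 0.18, edgeR adjusted p = 0.0034). From anterior to posterior, 1 of 17 stem cell genes was called higher and 1 lower in libraries labelled wt. There 4.81% of all genes were called. Under the Id2KO label 1 of 17 was called higher and 0 lower, where 2% were called. The higher gene was Tnfrsf19 under both labels. It rose from 34.0 to 77.5 CPM under wt and from 26.2 to 66.3 CPM under Id2KO. The lower gene was Ephb2, which fell from 51.3 to 28.9 CPM under wt.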
